A study of Mus musculus with 38 samples.

Results

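The sites described here are 3252 positions at which c-Fos was mapped together with FosB in depolarised mouse cortical neurons. They lay outside listed H3K27ac peaks and away from listed distal sites that carry both CBP and H3K4me1. They were chosen from 12594 c-Fos sites that the authors had combined from several libraries. Of these, 9187 (72.9%) lay in no H3K27ac peak of KCl-treated or silenced neurons. Of the 12594, 7653 (60.8%) also lay more than 500 bp from each of 11830 distal sites that carry CBP and H3K4me1. The name of that list credits Kim et al. The 3252 lay, in addition, inside a FosB peak in at least 2 of 4 lists from KCl-treated neurons. They make up 42.5% of the 7653 unmarked sites and 25.8% of all combined sites. They are called unmarked FosB sites below, and the 4401 unmarked sites found in 0 or 1 of the 4 FosB lists are called the other unmarked sites. A further 2854 combined sites with FosB in at least 2 lists lay in an H3K27ac peak or within 500 bp of a CBP site and are called marked FosB sites. "Unmarked" stands for the absence of a listed H3K27ac peak and of a listed distal CBP and H3K4me1 site, not for a measured lack of a mark. Lists of CBP alone or H3K4me1 alone were not used, and other histone marks were not analysed here.

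AP-1 is a family of transcription factors that bind DNA as pairs of a Fos protein and a Jun protein and recognise the same short palindromic motif. Neuronal activity rapidly induces c-Fos and FosB, and JunB is one of the Jun proteins that can pair with them. H3K27ac, an acetylated form of histone H3, marks active enhancers and promoters, CBP is an acetyltransferase that can deposit it, and H3K4me1 is found at enhancers whether or not they are active.

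Cortical neurons of C57BL/6 mice were prepared at embryonic day 16.5 and studied on day 7 in vitro. All had been silenced overnight with TTX (1 µM), which blocks sodium channels, and DL-AP5 (100 µM), which blocks NMDA receptors, and were then depolarised with KCl for 2 h or left silenced. Of the 38 samples, 22 gave AP-1 peak lists, 4 were mapped for H3K27ac, and 12 were input DNA, not analysed here. c-Fos was mapped by ChIP-seq (chromatin immunoprecipitation followed by sequencing, in which enriched stretches of DNA are called peaks) with the antibodies sc52 and sc7202 and FosB with sc48 in biological samples 3 and 4, both with KCl and silenced. JunB was mapped with sc46 in sample 4 alone, again with KCl and silenced. Biological samples 5 and 6 were infected with an shRNA against c-Fos and mapped with sc52, with an shRNA against FosB and mapped with sc48, or with a control shRNA and mapped with both antibodies, and every one of these cultures received KCl. How much protein the shRNAs left was not measured here. H3K27ac was mapped in samples 1 and 2, which the authors merged, so the acetylation and the AP-1 binding come from different cultures.

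The AP-1 lists held 557 to 28885 peaks. The depth behind them is unknown, because the lists give peaks and not reads, and a site outside a peak was only not called there. The values below are shares of sites inside a peak of a list, so a longer list raises them. The rule used the KCl and control shRNA FosB lists and H3K27ac, and the labels tie the combined sites to the KCl and control shRNA sc52 libraries. Values from those lists are descriptions. The rule does not name the sc7202, JunB, silenced and knockdown lists, although they share biological samples with lists that it used. No source used here states whether sc7202 libraries also entered the combined c-Fos sites, of which 64.0% lay in both KCl sc7202 lists. Shares in the KCl sc7202 lists may therefore be set in part by the selection. JunB is another protein, so its KCl list is not among the c-Fos libraries that could have entered. The sites were chosen through KCl lists, which favours a higher share with KCl in any comparison with silenced neurons. Sites are not replicates of a condition, and intervals cover counting error only.

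FosB was found at most of the sites in 2 of the 4 lists rather than in all. Of the 3252 sites, 1904 (58.5%) lay in 2 FosB lists, 923 (28.4%) in 3 and 425 (13.1%) in 4, and of all combined sites 8.48% lay in all 4. The control shRNA lists held 96.3% of the sites in sample 5 (74.1% of all combined sites) and 88.3% in sample 6 (47.8%). The KCl lists without shRNA held 42.6% in sample 3 (24.9% of all combined sites) and 27.4% in sample 4 (15.8%). The selection thus rested mainly on samples 5 and 6, which alone accounted for 1447 sites (44.5%), whereas samples 3 and 4 alone accounted for 5. With sample 5 left out and FosB still required in 2 lists, 1457 sites met the rule, and with sample 6 left out 1701 did. The list of sample 5 had wide peaks at the sites, 758 bp at the median, compared with 313 bp in sample 6 and 206 and 218 bp in samples 3 and 4.

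c-Fos, as mapped with sc52, was listed repeatedly at the same sites. All 4 KCl sc52 lists, control shRNA included, held 1214 of the unmarked FosB sites (37.3%), against 7.04% of the other unmarked sites and 25.2% of all combined sites. A further 1358 (41.8%, against 34.2% of the other unmarked sites) lay in 3 of these lists and 680 (20.9%, against 57.8%) in 2. By library, the sc52 lists held 86.2% of the sites in sample 3 (80.1% of all combined sites), 41.4% in sample 4 (30%), and, with control shRNA, 95.3% in sample 5 (93%) and 93.5% in sample 6 (83.9%). The unmarked FosB sites are therefore also the unmarked sites with c-Fos in more sc52 lists. Some of the results below, not all, are also given within the sites of all 4 sc52 lists.

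**Figure D1:**
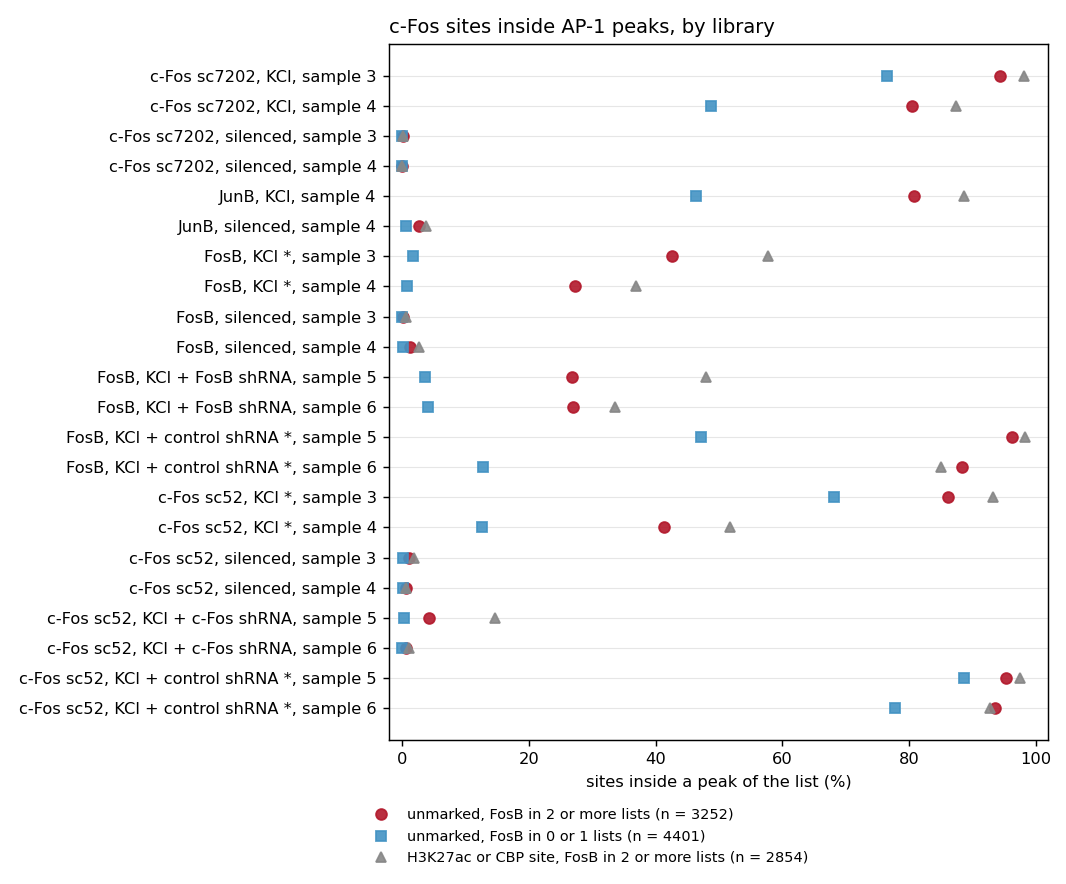
Share of sites inside a peak (%, x axis) in each of the 22 AP-1 lists (y axis), for the 3252 unmarked FosB sites (circles), the 4401 other unmarked sites (squares) and the 2854 marked FosB sites (triangles). A star marks lists that chose the sites, directly or through the combined c-Fos list. The sc7202 and JunB lists from KCl-treated neurons hold 80.4% to 94.3% of the unmarked FosB sites, and the lists from silenced neurons hold at most 2.68%.

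A different c-Fos antibody, sc7202, found most of the sites after depolarisation and almost none in silenced neurons. The sc7202 lists held 3067 sites (94.3%) in sample 3 and 2615 (80.4%) in sample 4 after KCl, against 6 (0.185%) and 1 (0.0308%) in silenced neurons. Of all combined sites, 87.6% and 67.6% lay in the KCl lists of samples 3 and 4, and 0.206% and 0.00794% in the silenced lists. The mean share of the unmarked FosB sites was 87.4% ± 9.83 with KCl and 0.108% ± 0.109 in silenced neurons (SD, n = 2 each), a difference of 87.3 points. The sites were chosen through KCl lists, in part of the same cultures, so the selection favoured this direction beforehand. The exact two-sided permutation test gave p = 0.333, the smallest value that 2 libraries against 2 allow, so this design cannot reach 0.05. For both reasons no conclusion is drawn from the test. The KCl lists were far longer, and with each list limited to its 557 best-scoring peaks the shares were 3.75% with KCl and 0.0308% in silenced neurons, a difference of 3.72 points.

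JunB, a partner of the Fos proteins, was listed at most of these sites too. The KCl JunB list held 2629 of the sites (80.8%, Wilson 95% interval 79.5 to 82.2%), and the silenced list held 87 (2.68%, 2.17 to 3.29%). Of all combined sites, 66.7% lay in the KCl list and 1.88% in the silenced list. The difference of 78.2 points comes from 1 library per condition and has no replicate check, and choosing the sites through KCl lists favoured its direction. With both lists at 3126 peaks it was 23.5 points (26.2% with KCl against 2.68% in silenced neurons).

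All 3 of these KCl lists (sc7202 of samples 3 and 4, and JunB) held 2240 of the unmarked FosB sites (68.9%), against 27.1% of the other unmarked sites, 80.4% of the marked FosB sites and 52.2% of all combined sites. None of the 3 held 72 sites (2.21%), against 13.4% of the other unmarked sites and 6.61% of all combined sites.

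Unmarked sites with FosB were found more often, in each of 3 KCl lists that the rule does not name, than unmarked sites in 0 or 1 FosB lists. In sc7202 of sample 3 the shares were 94.3% of the unmarked FosB sites and 76.6% of the other unmarked sites. In sc7202 of sample 4 they were 80.4% and 48.8%, and in JunB of sample 4 they were 80.8% and 46.4%. The difference was 17.7, 31.6 and 34.5 points in these libraries, with a mean of 27.9 ± 8.97 (SD, n = 3 libraries from 2 biological samples), and it had the same sign in 3 of 3. The exact two-sided sign-flip test over the 3 libraries gave p = 0.25, the smallest value it allows. As 2 of the libraries share sample 4, they are not independent. With the biological sample as a block the difference was 25.4 points (exact sign-flip p = 0.5, the smallest 2 blocks allow). The FosB lists that split the classes include samples 3 and 4, so the selection may have favoured this direction. No conclusion is drawn from either test. Within sites of all 4 sc52 lists (1214 unmarked FosB sites and 310 others), the difference was 5.77 points (2.49, 5.92 and 8.89), again in 3 of 3 libraries. It was smaller there than over all sites in each of these libraries. In JunB alone, where c-Fos sc7202 plays no part, the difference was 34.5 points over all sites and 8.89 points within the sites of all 4 sc52 lists, from 1 library.

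Set against marked FosB sites, the unmarked ones had slightly lower shares. The same 3 lists held 94.3%, 80.4% and 80.8% of the unmarked FosB sites, against 98.2%, 87.4% and 88.7% of the marked FosB sites. The mean difference was -6.23 points ± 2.10 (SD, n = 3 libraries from 2 biological samples), lower at the unmarked sites in 3 of 3 libraries. The exact two-sided sign-flip test gave p = 0.25, the smallest possible. With the biological sample as a block the difference was -5.64 points (exact sign-flip p = 0.5, the smallest 2 blocks allow), and no conclusion is drawn from either test. Within sites of all 4 sc52 lists it was -0.766 points. In the lists of FosB left under FosB shRNA the gap was uneven between cultures. There the shares were 26.9% of unmarked against 47.9% of marked FosB sites in sample 5, and 26.999% against 33.5% in sample 6.

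**Figure D2:**
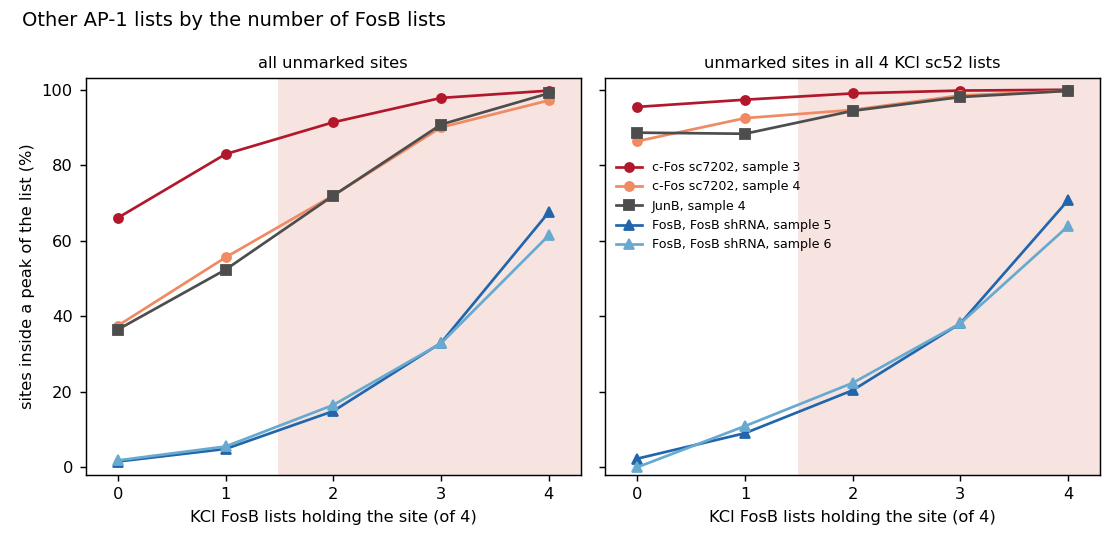
Share of unmarked sites inside a peak (%, y axis) of 5 KCl lists that the rule does not name, by the number of KCl and control shRNA FosB lists (0 to 4, x axis) that hold the site, for all 7653 unmarked sites (left) and for those in all 4 sc52 lists (right). Shading marks the sites with FosB in 2 or more lists. At sites in 4 FosB lists the JunB list holds 99.1% (left), and the FosB shRNA lists hold 67.5% and 61.4%.

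Sites that were listed for FosB more often were also listed more often for the other proteins. From 0 to 4 FosB lists, the JunB list held 36.5%, 52.3%, 71.95%, 90.8% and 99.1% of the unmarked sites. The sc7202 list of sample 4 held 37.5%, 55.6%, 72.0%, 90.03% and 97.2% of them. Over all unmarked sites, each step up in the number of FosB lists came with a higher share in both. Within the unmarked sites of all 4 sc52 lists (44, 266, 412, 467 and 335 sites) the range was much narrower. JunB held 88.6%, 88.3%, 94.4%, 98.1% and 99.7% there, with no higher share at 1 list than at 0, a class of only 44 sites. FosB under FosB shRNA kept a wide range there, with 2.27% (1 site), 9.02%, 20.4%, 38.1% and 70.7% in sample 5. In sample 6 the shares were 0%, 10.9%, 22.3%, 38.1% and 63.9%. Sites on each side of the FosB threshold were named by the median sc52 percentile of their class. Just inside, chr14:62639091 had FosB scores of 54.03 and 101.92 in the control shRNA lists of samples 5 and 6. In the same lists chr13:6626002 had 84.85 and 84.73, and chr14:65522044 had 152.01 in sample 5. Just outside, the FosB peak was in the control shRNA list of sample 5 alone. There chr15:10746316 scored 53.41, close to the lowest score of any AP-1 list (50). The sites chr13:25356769 and chr4:12493927 scored 101.38 and 122.78, so scores overlapped across the threshold.

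The score that the peak caller gave each peak also placed these sites above the other unmarked ones. A percentile of 100 stands for the best score of a list, and scores were compared only within a list. Peaks at the unmarked FosB sites had median percentiles of 79.3 in sc7202 of sample 3, 70.8 in sc7202 of sample 4 and 72.2 in JunB. Peaks at the other unmarked sites had medians of 55.2, 46.6 and 47.6 in the same lists, and those at marked FosB sites 88.0, 80.2 and 80.5. In the FosB shRNA lists the medians were 65.7 in sample 5 and 70.0 in sample 6 for the unmarked FosB sites, against 36.3 and 37.6 for the other unmarked sites. The quartiles of the first 2 classes overlapped in each of the 5 lists. Percentiles were not compared within the sites of all 4 sc52 lists, so the part of the sc52 difference in them was not tested. The peak centre was within 100 bp of the site at 88.4%, 83.1% and 84.5% of those in sc7202 of samples 3 and 4 and in JunB. Over all combined sites in a peak of these lists the shares were only slightly lower, at 83.3%, 79.1% and 79.6%. Peaks at the unmarked FosB sites were 698, 751 and 713 bp wide at the median in these lists.

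**Figure D3:**
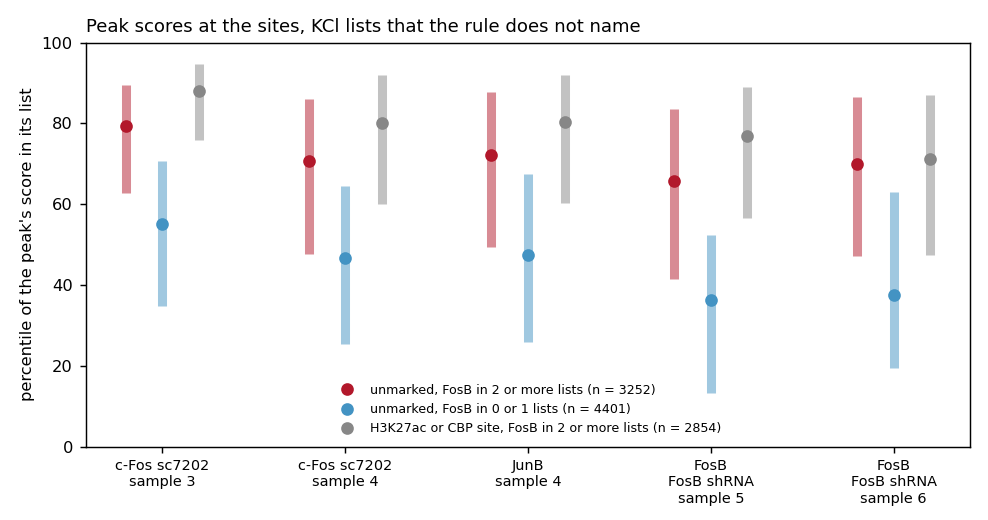
Percentile of the score within its list (y axis, 100 is the best score) for peaks that hold a site, in 5 KCl lists that the rule does not name (x axis). Points are medians and bars span the quartiles over the sites that lie in a peak of that list, so sites without a peak do not enter, and the n of the legend counts all sites of a class. The median for unmarked FosB sites lies between 65.7 and 79.3, above the other unmarked sites and below the marked FosB sites in each list.

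FosB peaks were listed at fewer of the sites under FosB shRNA, and a minority of the sites kept one in each culture. The FosB shRNA lists held 874 sites (26.9%) in sample 5 and 878 (26.999%) in sample 6, against 3132 (96.3%) and 2871 (88.3%) with control shRNA. Of all combined sites, the FosB shRNA lists held 20.7% in sample 5 and 16.8% in sample 6. The mean was 26.9% ± 0.0870 with FosB shRNA, against 92.3% ± 5.68 with control shRNA (SD, n = 2 each), a difference of -65.4 points. The control lists had chosen the sites and were longer, so this is a description. With all sc48 lists at 2041 peaks it was -8.36 points, with 10.6% under FosB shRNA against 18.97% with control shRNA.

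Sites chosen from samples 3 and 4 alone, an alternative chosen once results were known, gave a comparison that the FosB selection did not use. It left 469 of the 3252 sites. The FosB shRNA lists held 63.97% and 56.3% of them in samples 5 and 6, against 96.6% and 92.96% with control shRNA. The difference was -34.6 points (exact two-sided permutation test, p = 0.333, the smallest possible with 2 against 2). The labels still tie the combined c-Fos sites to control shRNA sc52 libraries of samples 5 and 6. The selection may therefore have favoured a higher share with control shRNA, and no conclusion is drawn from the test. At the other 7184 unmarked sites the shares were 10.2% and 11.1%, against 66.1% and 41.7% with control shRNA. Of all combined sites they were 20.7% and 16.8%, against 74.1% and 47.8%. A lower share under FosB shRNA was thus not particular to the 469 sites. The control shRNA lists were also longer, with 22933 and 14139 peaks against 9941 and 7180. Conversely, 2756 of the sites met the rule by samples 5 and 6 alone, and KCl FosB lists held 37.2% of these in sample 3 and 25.8% in sample 4, against 0.109% and 1.45% in silenced neurons. That difference was 30.7 points (exact permutation p = 0.333), and choosing the sites through KCl lists favoured its direction. At the other 4897 unmarked sites the KCl FosB lists held 8.88% and 4.43%.

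The sites that kept FosB under the shRNA were partly the same in both cultures. Both FosB shRNA lists held 492 sites (15.1% of the 3252, against 10.2% of all combined sites), which are 56.3% of those in sample 5 and 56.04% of those in sample 6. At least 1 of the lists held 1260 (38.7%, against 27.3% of all combined sites). JunB was listed at 97.6% of the 492 after KCl and at 73.5% of the 1992 sites in neither FosB shRNA list. All 4 sc52 lists held 64.2% of the 492 and 27.5% of the 1992. Lists from silenced neurons held 12.6% of the 492 and 0.954% of the 1992.

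c-Fos shRNA left far fewer sc52 peaks at the sites. In sample 5, 138 sites (4.24%) lay in the sc52 list under c-Fos shRNA, against 3100 (95.3%) with control shRNA. In sample 6, 20 sites (0.615%) did, against 3042 (93.5%). Of all combined sites, 5.09% and 0.437% lay in the c-Fos shRNA lists of samples 5 and 6, so the unmarked FosB sites were near the background. Relative to control shRNA, the c-Fos shRNA lists differed by -92.0 points (2.43% ± 2.57 against 94.4% ± 1.26, SD, n = 2 each), described without a test because the control lists are tied to the combined sites. With sc52 lists of 1793 peaks it was -12.9 points. At least 1 c-Fos shRNA list held 147 sites (4.52%, against 5.25% of all combined sites and 15.1% of the marked FosB sites). Both held 11 (0.338%, against 0.278% of all combined sites). Of the 147, 98.6% lay in the KCl JunB list, against 80.8% of all unmarked FosB sites and 66.7% of all combined sites. The FosB shRNA lists of samples 5 and 6 held 74.1% and 66.7% of the 147, against 26.9% and 26.999% of all unmarked FosB sites. All 4 FosB lists held 60.5%, against 13.1%. All 4 sc52 lists held 87.8% of the 147 and 37.3% of all unmarked FosB sites, and the part of this in the other differences was not tested.

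AP-1 was listed at few of the sites in silenced neurons. At least 1 of the 7 silenced lists held 114 sites (3.51%, against 2.95% of all combined sites), at least 2 held 47 (1.45%, against 1.1%) and at least 3 held 23 (0.707%, against 0.413%). By library, the sc52 lists held 34 sites (1.05%, against 0.913% of all combined sites) in sample 3 and 21 (0.646%, against 0.357%) in sample 4. The FosB lists held 4 sites (0.123%, against 0.246%) in sample 3 and 41 (1.26%, against 1.03%) in sample 4. JunB accounted for most of the listed sites, with 87, of which 28 (32.2%) were also in the silenced FosB list of the same sample.

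The 87 sites with JunB in silenced neurons had higher shares than the remaining 3165 in KCl lists that the rule does not name. All 87 were in the KCl JunB list, against 80.3% of the rest. Under FosB shRNA, 63.2% of the 87 kept a FosB peak in sample 5 and 80.5% in sample 6, against 25.9% and 25.5% of the rest. All 4 sc52 lists held 67.8% of the 87 and 36.5% of the rest, and the part of this in the other differences was not tested. These sites were chosen by a single library, and the differences were not tested.

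Only 10 of the unmarked FosB sites lay in all 15 lists from KCl-treated neurons, knockdown lists included (0.191% of all combined sites did). JunB was also listed in silenced neurons at 7 of the 10, and at 12 of the 24 combined sites that lay in all 15 lists. These sites lay between 10.1 and 1872 kb from the nearest H3K27ac peak of either condition, with a median of 57.9 kb, and between 30.7 and 2485 kb from the nearest CBP site. Their positions are given in build mm9, and no gene was assigned.

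The best-ranked of the 10, chr17:66311213, had no peak in any silenced list. Its score reached 3100, the highest value in both KCl sc7202 lists, the KCl JunB list and both control shRNA FosB lists. Under FosB shRNA it scored 1353.31 in sample 5 and 317.65 in sample 6, and under c-Fos shRNA the sc52 scores were 1598.23 and 346.57. In sc7202 of sample 3 the peak reached from 66310461 to 66311891. The second, chr13:58755968, was likewise absent from the silenced lists, and its JunB score with KCl was 2285.27. The nearest H3K27ac peak was 10.1 kb away at the first site and 15.1 kb away at the second.

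Other sites of the 10 were listed without stimulation. The site chr9:78852494 lay in 5 of the 7 silenced lists, with a JunB score of 1472.72 in the KCl list and 804.83 in the silenced list. FosB at this site scored 610.75 and 1192.5 under FosB shRNA in samples 5 and 6, and 886.7 and 1190.48 with control shRNA. The site chr1:107389461 also lay in 5 silenced lists, and chr19:14415421 in 4. Scores are not comparable between lists, so these values show only that the site was among the higher peaks of each.

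The site farthest from acetylated chromatin was one of the same 10. It is chr1:104249938, 1872 kb from the nearest H3K27ac peak and 2485 kb from the nearest CBP site, and it lay in 4 silenced lists. Its JunB peak had a score of 819.24 with KCl, at the 99.7th percentile of that list, and 1679.46 in silenced neurons, at the 99.8th percentile. The next farthest sites, chr3:111470129 (1415 kb) and chr3:112012005 (1320 kb), lay in 2 FosB lists each, in all 3 of the sc7202 and JunB KCl lists, and in no silenced or knockdown list.

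Of the unmarked FosB sites, 85.6% lay more than 5 kb from every listed H3K27ac peak, against 83.2% of the other unmarked sites. The rule had left out sites inside such a peak, so a larger distance than over all combined sites was set beforehand. The median distance to the nearest H3K27ac peak of either condition was 29.4 kb for the unmarked FosB sites, 24.0 kb for the other unmarked sites and 11.04 kb for all combined sites, where sites inside a peak count as 0. Within 5 kb of such a peak lay 467 sites (14.4%, against 16.8% of the other unmarked sites), and 654 (20.1%, against 17.4%) lay over 100 kb away. Of the 467, 104 (3.20% of the 3252) were near a peak listed with KCl alone and 93 (2.86%) near one listed in silenced neurons alone. The remaining 270 (8.30%) were near peaks of both. At the other unmarked sites these shares were similar, with 3.52%, 3.43% and 9.82%, and over all combined sites 9.54%, 3.91% and 25.96%. The median distance to a distal H3K27ac peak of KCl-treated neurons was 59.3 kb, against 48.3 kb for the other unmarked sites and 26.6 kb for all combined sites. To a non-distal one it was 135 kb, against 112 kb and 95.4 kb. Nearest CBP sites were 89.0 kb away at the median, against 74.2 kb for the other unmarked sites. Between neighbouring unmarked FosB sites the median distance was 205 kb, and 167 (5.14%) had another of them within 10 kb. These values depend on how many sites were kept. The nearest other combined c-Fos site was 52.1 kb away at the median, against 53.0 kb for the other unmarked sites and 44.9 kb for all combined sites. It lay within 10 kb for 15.5%, 14.0% and 17.4% of these classes. The unmarked FosB sites made up 36.4% of the unmarked sites on chromosome 11, the lowest share, and 48.5% on chromosome X, the highest (48 of 99).

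**Figure D4:**
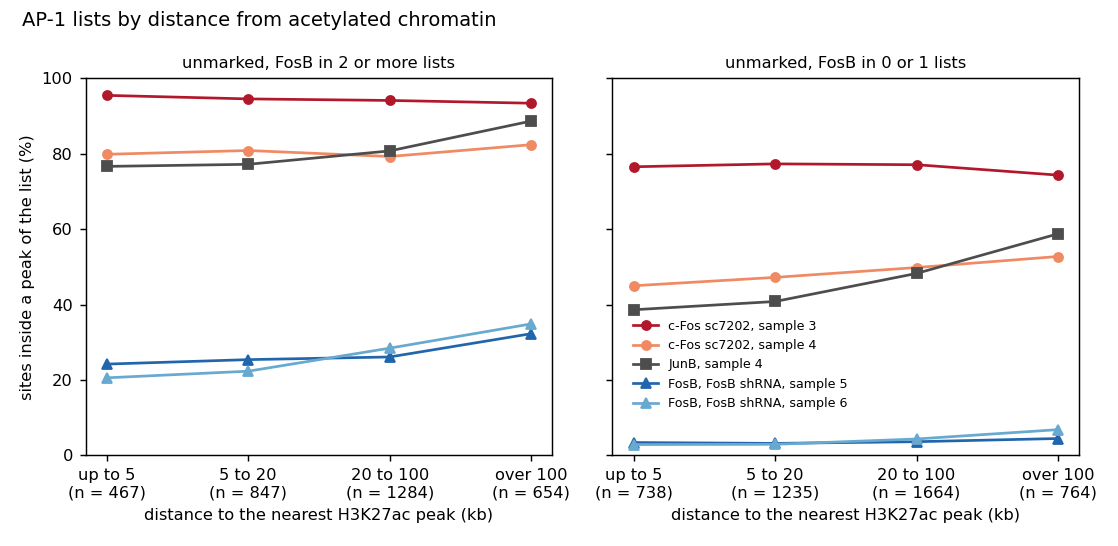
Share of sites inside a peak (%, y axis) of 5 KCl lists that the rule does not name, by distance to the nearest H3K27ac peak of either condition (x axis, kb), for the unmarked FosB sites (left) and the other unmarked sites (right), with the number of sites in each bin. Among the unmarked FosB sites the JunB share is 76.7% up to 5 kb and 88.7% over 100 kb, and sc7202 of sample 3 holds 95.5% and 93.4%.

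JunB, and FosB under FosB shRNA, were listed at a larger share of the sites over 100 kb from H3K27ac than of those within 5 kb, while the sc7202 shares differed by under 5 points between any bins. In bins of up to 5, 5 to 20, 20 to 100 and over 100 kb, the JunB list held 76.7%, 77.2%, 80.8% and 88.7% of the unmarked FosB sites. The FosB shRNA lists held 24.2%, 25.4%, 26.1% and 32.3% in sample 5 and 20.6%, 22.3%, 28.4% and 34.9% in sample 6. The sc7202 lists held 95.5%, 94.6%, 94.2% and 93.4% in sample 3 and 79.9%, 80.9%, 79.3% and 82.4% in sample 4. The share of these sites in all 4 sc52 lists also differed between the bins, with 31.7%, 36.95%, 37.1% and 42.4%. Within the sites of all 4 sc52 lists (148, 313, 476 and 277 in the bins), JunB held 96.6%, 94.2%, 98.3% and 99.3%. There the FosB shRNA lists held 38.5%, 36.7%, 41.4% and 46.9% in sample 5 and 30.4%, 34.2%, 43.5% and 45.1% in sample 6. JunB was mapped in 1 library, and the trends across bins were not tested. At the other unmarked sites the JunB list held 38.6%, 40.8%, 48.3% and 58.8% over the same bins.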

How the data were processed

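Peak lists were used as the authors deposited them. Per the submitters' processing notes, the aligner was BWA (no version stated) and the build mm9. Names of peaks start with MACS in the deposited files, without a version. The authors called AP-1 peaks library by library and H3K27ac peaks on samples 1 and 2 merged, per the labels. The score in the deposited lists follows the p-value on the scale of MACS, where 50, the lowest AP-1 score, stands for 1e-05. No source used here states how the authors combined the c-Fos sites.

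A site was counted in a list when it lay inside a peak. Groups and biological sample numbers came from the labels, which give libraries of 1 biological sample the same number. The share of the sites was higher in sample 3 than in 4 in 5 of 6 groups and higher in 5 than in 6 in 3 of 4. These counts cannot check the pairing, because list length also differed between the samples. In KCl sc52, for example, it was 22368 peaks in sample 3 and 6808 in sample 4. Shares were compared over libraries with exact permutation or sign-flip tests, and Wilson 95% intervals were used where 1 library stood alone. The sites, lists and tests were chosen with earlier results of these data known. Sites named were the 10 in all 4 FosB lists with the most sc7202, JunB and knockdown lists (ties by score percentile), up to 5 in the most silenced lists, up to 3 on each side of the FosB threshold with the median sc52 percentile, and the 3 farthest from H3K27ac. Positions on chromosome 18 are not printed. Overlap was checked with random positions on the KCl JunB list, and the recovery of a share difference on simulated sites. The permutation and sign-flip tests were not checked in this way. Alternatives were a peak centre within 200 bp, a score of at least 100, lists of equal length, other limits for CBP, H3K27ac and FosB, autosomes, close sites merged, samples left out and the replicate block. Sequence motifs and genes were not analysed here, since no mm9 genome or annotation was used. Python 3.11.15, numpy 2.4.6, scipy 1.17.1 and matplotlib 3.10.9 were used.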

Additional observations from a re-analysis of the deposited data

How the results depend on the processing

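No result changed direction, although choosing the sites through KCl lists favoured the direction of the comparisons with silenced neurons. The sc7202 difference between KCl and silenced neurons (3.72 to 98.4 points), the difference from the other unmarked sites (5.77 to 48.5) and that from the marked FosB sites (-9.74 to -0.659) kept their sign in each of the 19 settings run for each. With the biological sample as a block, the sc7202 difference was the same 87.3 points (exact sign-flip p = 0.5, the smallest 2 pairs allow), the difference from the other unmarked sites was 25.4 points and that from the marked FosB sites -5.64 points, and the 2 knockdown differences kept their values. JunB, with 1 library per condition, has no block. The number of sites was 1411 with scores of at least 100, 5997, 1348 and 425 with FosB in at least 1, at least 3 and all 4 lists, 1214 in all 4 sc52 lists, 469 by samples 3 and 4 alone, and 1457 to 3111 with 1 biological sample left out. The JunB difference was 76.0 points with peak centres, 68.8 with the higher score, 23.5 with lists of equal length, 66.0 (at least 1 FosB list), 88.4 (at least 3), 89.9 (all 4), 92.4 (all 4 sc52 lists), 89.6 (samples 3 and 4 alone) and 79.4 to 87.9 with a sample left out, and it has no value without sample 4. For c-Fos shRNA these values were -81.6 (higher score), -12.9 (equal length), -89.1 (at least 1), -86.9 (all 4), -94.2 (all 4 sc52 lists), -87.6 (samples 3 and 4 alone) and -95.5 to -89.7 (a sample left out). For FosB shRNA they were -8.36 (equal length), -55.0 (at least 1, and also in all 4 sc52 lists), -55.7 (at least 3), -35.5 (all 4), -34.6 (samples 3 and 4 alone) and -67.8 to -57.1 (a sample left out). The cause of these shifts was not tested beyond what each setting does to the sites or lists kept. Depth is unknown for all libraries, and list length, which sets much of each share, cannot be told apart from binding here.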

Other observations

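The 12 unmarked FosB sites with a CBP site between 500 and 1000 bp away lay in the KCl JunB list in 41.7% of cases, against 80.8% of all unmarked FosB sites. Among 971 sites outside H3K27ac that have FosB in at least 2 lists but a CBP site within 500 bp, 88.6% lay in the KCl JunB list and 49.1% and 36.1% in the FosB shRNA lists of samples 5 and 6. Under c-Fos shRNA, the sc52 peaks at the sites had a median score percentile of 25.4 over 138 sites in sample 5 and 18.2 over 20 sites in sample 6, against 31.6 and 17.3 over all combined sites in a peak.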
